A study of Mus musculus with 4 samples.

Results

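The genes described here build, burn and store fatty acids: 37 genes read from the comparison of 38697 genes, each found there under exactly 1 row. They were chosen by name and sorted by role into 11 for synthesis, elongation and desaturation, 4 for fatty acid activation, 12 for mitochondrial oxidation, 8 for uptake, storage and lipolysis, and 2 nuclear receptors of the PPAR family. RNA came from group 2 innate lymphoid cells (ILC2s), tissue lymphocytes that secrete type 2 cytokines, sorted from lungs of C57BL/6 mice after bleomycin, a drug that injures the lung. The 2 KO samples came from R5/+Nrp1f/f mice and the 2 WT samples from R5/+ mice, each sample being RNA of a pool of 3 to 4 mice. Both genotypes thus carry 1 copy of R5, an allele at the Il5 locus that reports IL-5 and drives Cre, so that deletion of the floxed Nrp1 gene is limited to cells that have expressed Il5. Both also received bleomycin, and untreated lungs were not analysed here. Ages are not given in the labels.

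Cells make fatty acids in the cytosol, where ATP citrate lyase supplies acetyl-CoA, acetyl-CoA carboxylase makes malonyl-CoA and fatty acid synthase extends the chain. Elongases and desaturases then modify it, acyl-CoA synthetases activate it, and it is either esterified by diacylglycerol acyltransferases into the triglyceride of lipid droplets or carried by the carnitine shuttle into mitochondria for beta-oxidation. Lung ILC2s are known to take up external lipid, to hold it in droplets and to use fatty acids as fuel.

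The values are those of the authors' deposited table, which gives for each gene a mean normalized count over the libraries (baseMean) and a log2 difference between the genotypes with a standard error and an adjusted p. All log2 values below are KO over WT, the sign of the deposited column having been turned because the table's name puts WT first. Values per library were not used here, since the codes that head those columns match no sample label. The genotype means given below are therefore implied ones, computed from baseMean and the fold change with equal weight for the genotypes. Levels per kb divide by the merged length of all annotated exons, which can exceed the length of the transcript made. Ranks of level between genes therefore depend in part on the annotation. The baseMean values of all genes sum to 12974883. As a check of the labels, Nrp1 had an implied mean of 2313 normalized counts in KO and 5229 in WT, a log2 value of -1.18 ± 0.21 (SE, adjusted p = 1.27e-04) per the authors' deposited table. Of 13 ILC2 markers, all were present, with Id2 at a baseMean of 43668 and Gata3 at 39152 per the authors' deposited table. In a bulk sample, fewer cells of a type and less RNA per cell cannot be told apart.

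No lipid gene passed the test. At an adjusted p under 0.05, 0 of the 37 genes were higher and 0 lower in KO per the authors' deposited table, against 87 of 19193 tested genes higher (0.453%) and 19 lower (0.099%). The smallest adjusted p among the 37 was 0.222, for Dgat1. At an unadjusted p under 0.05, 0 were higher, where 9.62% of all tested genes were, and 4 were lower, where 3.95% were. Those 4 were Dgat1, Cpt1a, Acly and Hadh, all with a baseMean of at least 1000. Of the 2480 tested genes that abundant, 21.6% were lower at the same unadjusted threshold, and 4 of the 14 lipid genes in that range were. All 37 genes had an adjusted p, so none was lost to the filter on low counts.

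The log2 values followed those of other genes of like abundance. Across all tested genes the median log2 value ran from 1.79 at a baseMean under 20 to -0.26 at a baseMean of 3000 or more per the authors' deposited table. Of the 14 lipid genes with a baseMean of at least 1000, 13 were below 0 with a median of -0.31, where the median of all such genes was -0.25 and 7.10% of them were above 0. Of the 7 lipid genes with a baseMean under 100, 5 were above 0. When each gene was set against the median of tested genes in its own range of baseMean (7 ranges), 17 of the 37 lay above it and 20 below, the median distance being -0.03 on the log2 scale.

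**Figure D1:**
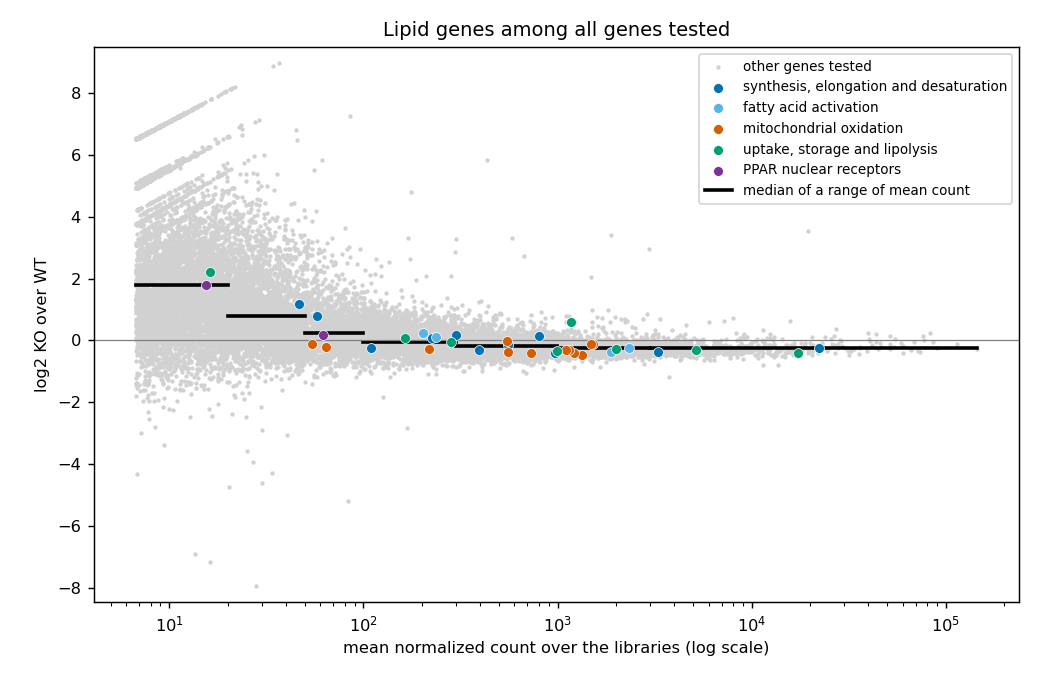
Each point is a tested gene, with its mean normalized count over the libraries on the x axis (log scale) and its log2 KO over WT on the y axis. Lipid genes are coloured by role, and black bars are the medians of all tested genes in 7 ranges of mean count, which descend from 1.79 to -0.26; 17 of the 37 lipid genes lie above the bar of their range and 20 below, with Cd36 the farthest above.

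The roles were compared by description, since no test of the difference between them was run. Oxidation genes had a median log2 value of -0.29 with 12 of 12 below 0, uptake and storage genes -0.17 with 5 of 8 below 0, and synthesis genes -0.14 with 6 of 11 below 0; when log2 values were centred on the median of abundant genes these counts were 7 of 12, 4 of 8 and 3 of 11. Relative to genes of like abundance, 9 of 12 oxidation genes, 5 of 8 uptake and storage genes and 4 of 11 synthesis genes lay below the median of their range. The oxidation genes lay a median of -0.16 from it, the uptake and storage genes -0.02 and the synthesis genes 0.06. Among genes with a baseMean of at least 1000, the medians were -0.31 for 6 oxidation genes, -0.30 for 4 uptake and storage genes, -0.30 for 2 synthesis genes and -0.31 for 2 activation genes. In that range the medians of the 4 roles spanned 0.0149 on the log2 scale, and the synthesis and activation medians rest on 2 genes each.

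**Figure D2:**
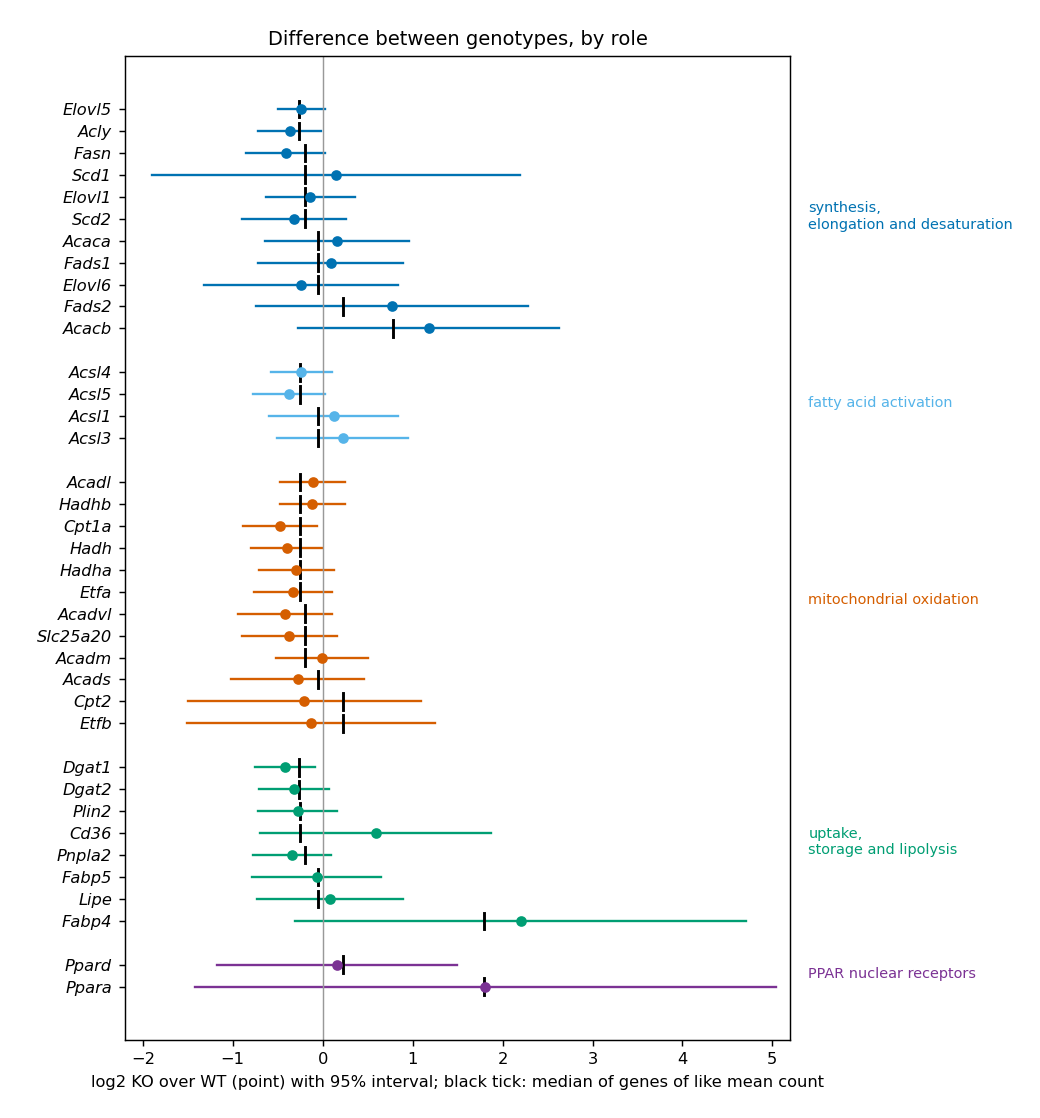
The x axis is log2 KO over WT; each point is a lipid gene, its bar the 95% interval (1.96 standard errors either side), and the black tick is the median of tested genes in the same range of mean count. Genes run from high to low mean count within each role, and the intervals of Scd1 and Cd36 are wider than those of several scarcer genes below them; those of Acly, Cpt1a, Hadh and Dgat1 lie below 0, and each of these intervals includes the black tick.

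Synthesis was led by Elovl5, an elongase of polyunsaturated fatty acids, and by Acly, the ATP citrate lyase. Elovl5 (chr9:77917364-77984519, mm10) had 6310 normalized counts per kb of exon, percentile 99.5 of tested protein-coding genes. Its implied means were 20401 normalized counts in KO and 24045 in WT, a log2 value of -0.24 ± 0.13 (SE, adjusted p = 0.425) per the authors' deposited table. This was the most precise estimate among the 37, and its 95% interval was 0.709 to 1.02 as a fold of KO over WT. Acly (chr11:100476353-100528000) had 621 per kb and implied means of 2866 in KO and 3692 in WT, a log2 value of -0.37 ± 0.18 (adjusted p = 0.336) per the authors' deposited table. Fasn, the fatty acid synthase, had 88.3 per kb and implied means of 830 in KO and 1104 in WT, with -0.41 ± 0.22 (adjusted p = 0.415) per the authors' deposited table. For Fasn the interval of the fold was 0.554 to 1.02.

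The other synthesis genes had lower levels per kb than Elovl5 and Acly. Acaca, the cytosolic acetyl-CoA carboxylase, had 17.5 normalized counts per kb, and Acacb, the isoform tied to the mitochondrial surface, 4.86 per kb. Their log2 values were 0.16 ± 0.41 for Acaca and 1.18 ± 0.74 for Acacb per the authors' deposited table. Acacb had implied means of only 64.9 normalized counts in KO and 28.7 in WT, a range of baseMean in which the median of all tested genes was 0.78. Elovl1, an elongase of very long chains, had 203 per kb and Elovl6, which extends palmitate, 17.0 per kb, and their log2 values of -0.14 ± 0.25 and -0.24 ± 0.55 per the authors' deposited table had intervals that included 0. The desaturases of polyunsaturated fatty acids, Fads1 and Fads2, were at 46.9 and 17.5 per kb, with 0.09 ± 0.41 and 0.77 ± 0.77 per the authors' deposited table. Scd2, a stearoyl-CoA desaturase, stood at -0.32 ± 0.30 (adjusted p = 0.685) per the authors' deposited table. Scd1 to Scd4 are related genes that lie together on chromosome 19, and so are Fads1 to Fads3. Whether reads were split among the genes of either group was not tested.

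The promoters of Elovl5 and Fasn are shown because these genes had the highest level among the synthesis genes and the largest negative log2 value. They are the 250 bases before the RefSeq start (GRCm38.p6), read 5′ to 3′ on the gene's strand, the + strand for Elovl5 (chr9:77917115-77917364) and the - strand for Fasn (chr11:120824548-120824797), with E-boxes, CCAAT boxes and GC boxes on either strand in capitals.
Elovl5: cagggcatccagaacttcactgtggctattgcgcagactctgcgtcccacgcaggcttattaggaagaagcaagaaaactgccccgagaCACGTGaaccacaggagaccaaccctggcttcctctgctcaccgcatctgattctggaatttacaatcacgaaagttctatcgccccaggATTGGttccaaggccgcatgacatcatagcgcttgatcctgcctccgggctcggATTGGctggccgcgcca
Fasn: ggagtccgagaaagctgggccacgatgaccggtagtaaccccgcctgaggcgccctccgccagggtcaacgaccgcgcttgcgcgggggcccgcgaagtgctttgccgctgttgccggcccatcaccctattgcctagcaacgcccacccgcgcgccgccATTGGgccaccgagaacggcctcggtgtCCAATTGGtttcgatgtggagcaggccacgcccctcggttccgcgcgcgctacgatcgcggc

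Elovl5 holds an E-box 155 bases from the end of that window and CCAAT boxes 66 and 12 bases from it. Fasn holds CCAAT boxes 85, 57 and 54 bases from the end, the last pair overlapping on opposite strands. Promoters of 30 of the 37 genes were matched in RefSeq. Searched on both strands for the letters of its name, the CCAAT box was found in 14 of the 30 (46.7%) and in 37.5% of all 27025 genes with a promoter. The E-box, CACGTG, was found in 2 of 30 (6.67%, against 6.86% of all), in Elovl5 and Lipe. The GC box, GGGCGG, was found in 19 (63.3%, against 35.4%). TCACNCCAC, a sterol regulatory element, was found in Acsl1 alone among the 30 and in 1.22% of all. A gene was counted if any of its promoter windows held the letters, and the 27025 genes were not limited to those tested in these samples. A match is a run of letters in such a window and no measure of binding.

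Of the 4 long-chain acyl-CoA synthetases, Acsl4, which prefers arachidonate, and Acsl5 were the abundant ones. Acsl4 had 434 normalized counts per kb and Acsl5 389, against 46.8 for Acsl3 and 22.6 for Acsl1. Acsl5 had implied means of 1646 in KO and 2134 in WT, a log2 value of -0.37 ± 0.20 (adjusted p = 0.407) per the authors' deposited table, and Acsl4 stood at -0.24 ± 0.17 (0.579). The log2 values of Acsl3 and Acsl1 were 0.22 ± 0.37 and 0.12 ± 0.37 per the authors' deposited table. The 2 abundant synthetases were thus below 0 and the 2 scarce ones above it as deposited, while under either centring Acsl4 turned and 1 lay below 0 and 3 above. Between a baseMean of 100 and 300, where the scarce ones lie, 44.1% of tested genes were above 0.

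Oxidation begins with the carnitine shuttle. Cpt1a (chr19:3322334-3385733), the outer-membrane palmitoyltransferase that is the controlled step of entry, had 176 normalized counts per kb and implied means of 1123 in KO and 1562 in WT. Its log2 value, -0.47 ± 0.21 per the authors' deposited table, was the lowest of all 37 and did not pass (unadjusted p = 0.0245, adjusted p = 0.273). As a fold of KO over WT this was 0.720, with a 95% interval of 0.540 to 0.959. Slc25a20, the carnitine-acylcarnitine carrier, stood at -0.37 ± 0.27 (adjusted p = 0.574) and Cpt2, the inner-membrane transferase, at -0.20 ± 0.66 (0.930) per the authors' deposited table. Cpt2 had 26.7 per kb, the lowest level of the shuttle.

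Among the acyl-CoA dehydrogenases, which open each round of oxidation on chains of a given length, Acadl (long chain) had 756 normalized counts per kb, Acadvl (very long chain) 270, Acadm (medium chain) 140 and Acads (short chain) 95.5. Their log2 values were -0.11 ± 0.19 for Acadl, -0.42 ± 0.27 for Acadvl, -0.01 ± 0.26 for Acadm and -0.28 ± 0.38 for Acads per the authors' deposited table. Acadm, with implied means of 546 in KO and 550 in WT, was the oxidation gene nearest to 0. Acadvl shares 1151 exonic bases, 42.9% of its exon length, with Dvl2 on the opposite strand, and the kits are not described as marking strand, so its reads cannot be assigned with certainty.

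The later steps gave values of the same size. Hadh, the 3-hydroxyacyl-CoA dehydrogenase of shorter chains, had implied means of 1053 in KO and 1390 in WT, with -0.40 ± 0.20 (unadjusted p = 0.0483, adjusted p = 0.365) per the authors' deposited table. Hadha and Hadhb encode the alpha and beta subunits of the mitochondrial trifunctional protein and had 131 and 227 normalized counts per kb. Hadha stood at -0.30 ± 0.21 (adjusted p = 0.566) and Hadhb at -0.12 ± 0.19 (0.837) per the authors' deposited table. These subunit genes run in opposite directions from starts separated by 85 bases, and the sequence between them is shown because it lies upstream of both (chr5:30155163-30155247, mm10, + strand, GC boxes in capitals).
Hadha-Hadhb gap: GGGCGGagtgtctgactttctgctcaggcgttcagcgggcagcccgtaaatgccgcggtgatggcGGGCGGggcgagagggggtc

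Etfa and Etfb encode the subunits of the flavoprotein that takes electrons from the acyl-CoA dehydrogenases. Etfa had a baseMean of 1108 (604 normalized counts per kb) and Etfb one of 54.4 (46.7 per kb) per the authors' deposited table. Their log2 values were -0.33 ± 0.22 and -0.13 ± 0.70 per the authors' deposited table. The 2 subunits thus differed far more in level than the Hadha and Hadhb pair. In the annotation, 617 exonic bases of Etfb, 53.0% of its exon length, also belong to Gm45233 on the same strand. Gm45233 has no row in the deposited table, and the part of this overlap in the low count of Etfb was not tested.

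**Figure D3:**
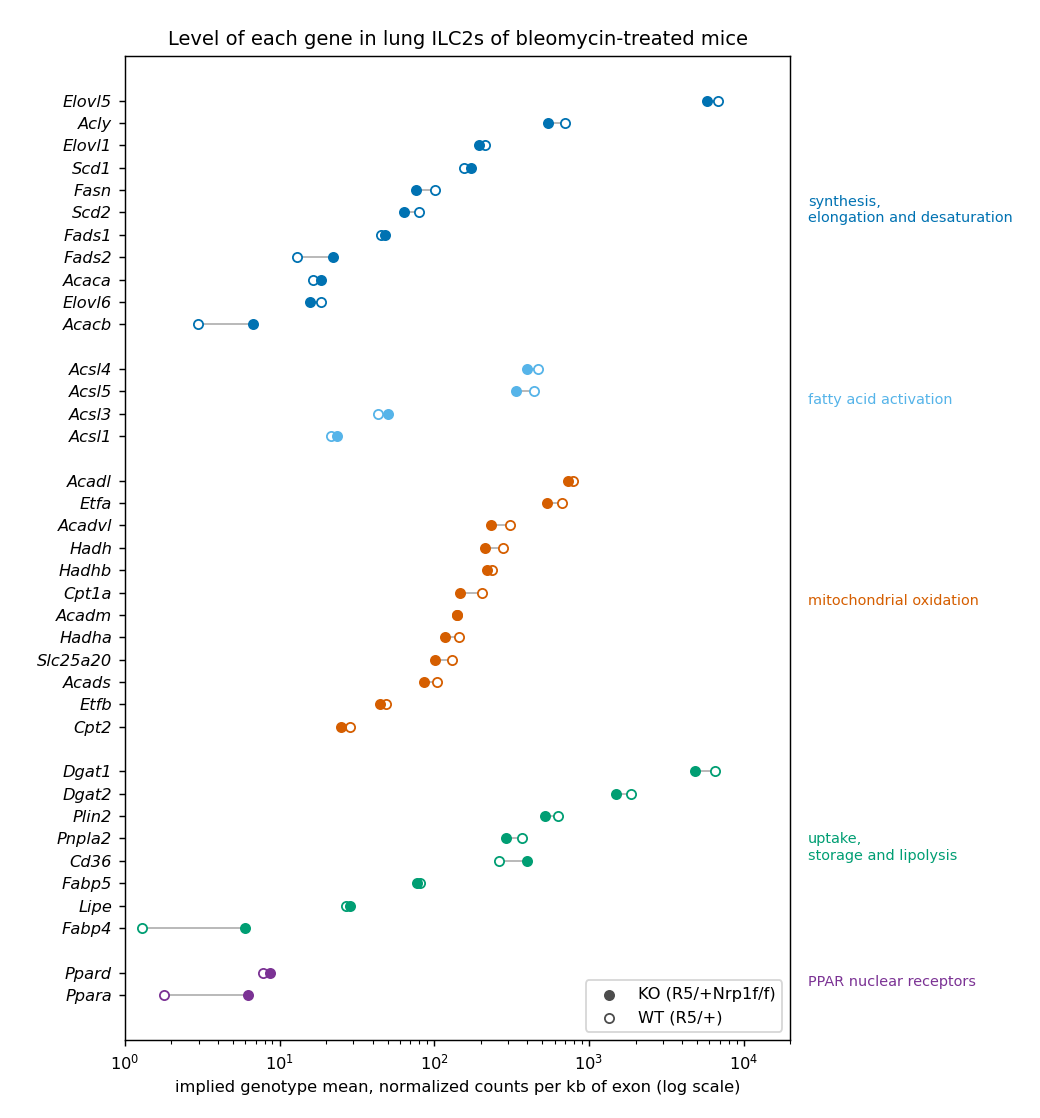
The x axis is the implied genotype mean in normalized counts per kb of exon (log scale); filled points are KO and open points WT, and the genes of each role run from high to low level. Elovl5 and Dgat1 are the most abundant of the 37, and the wide gaps between points are those of the scarce genes Acacb, Fabp4 and Ppara.

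The acyltransferases led the storage genes. Dgat1 (chr15:76502015-76511953), an enzyme of the last step of triglyceride synthesis, had 5681 normalized counts per kb, percentile 99.4 of tested protein-coding genes. Its implied means were 14861 in KO and 19863 in WT, a log2 value of -0.42 ± 0.17 (unadjusted p = 0.0149, adjusted p = 0.222) per the authors' deposited table. The fold of KO over WT was 0.748 with a 95% interval of 0.592 to 0.945. Dgat2, which catalyses the same step and is unrelated in sequence, had 1671 per kb and implied means of 4587 in KO and 5714 in WT, with -0.32 ± 0.20 (adjusted p = 0.485) per the authors' deposited table. Plin2, the coat protein of lipid droplets, stood at -0.28 ± 0.22 (adjusted p = 0.620) and Pnpla2, the lipase that starts triglyceride breakdown, at -0.34 ± 0.22 (0.520) per the authors' deposited table. Lipe, the hormone-sensitive lipase that follows it, had 27.7 per kb against 329 for Pnpla2, and its log2 value was 0.08 ± 0.41 per the authors' deposited table.

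Of the carriers, Fabp5, the fatty acid binding protein of many lymphoid cells, had 78.9 normalized counts per kb and a log2 value of -0.07 ± 0.37 (adjusted p = 0.961) per the authors' deposited table. That level per kb rests on a merged exon length of 3567 bases. Fabp4, the form typical of adipocytes, macrophages and capillary endothelium, had a baseMean of 16.2 and implied means of 26.7 in KO and 5.81 in WT. Its log2 value of 2.20 ± 1.28 (adjusted p = 0.447) per the authors' deposited table was the highest of the 37, in a range where the median of all tested genes was 1.79. Cd36, a scavenger receptor that takes up long-chain fatty acids, had implied means of 1416 in KO and 940 in WT, with 0.59 ± 0.65 (adjusted p = 0.744) per the authors' deposited table. Alone among the 14 lipid genes with a baseMean of at least 1000, Cd36 had a value above 0.

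Cd36 and Scd1 had standard errors far wider than genes of like abundance. The error of Scd1 (log2 value 0.15 ± 1.04 per the authors' deposited table, implied means of 842 in KO and 759 in WT) was 3.88 times the median of its range of baseMean, and that of Cd36 was 3.32 times. Among the tested genes of their ranges, 0.604% had an error at least as wide as that of Scd1 and 1.43% one as wide as that of Cd36. They were the 2 of the 37 with an error over 2 times that median, as were 1.13% of all tested genes. The 95% interval of the fold was 0.268 to 4.59 for Scd1 and 0.619 to 3.67 for Cd36, so neither direction nor size could be read from these samples. Alveolar type 2 cells, the surfactant-making epithelium, express Scd1, and 7 of 11 of their markers had errors over 2 times the median of their range, that of Sftpc being 8.88 times (0.60 ± 1.44 per the authors' deposited table). The same held for 1 of 12 endothelial markers (Kdr, 3.23 times) and 1 of 12 alveolar macrophage markers (Chil3, 3.52 times), cell types that express Cd36.

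The implied sums for markers of these other cells were larger in KO, although no marker passed the test. Summed over the list, the type 2 markers had implied means of 13177 normalized counts in KO and 8824 in WT, with 9 of 11 above 0 and 10 of 11 above the median of their range of baseMean. These sums carry no error. Sftpc, the most abundant of the list at a baseMean of 6032, stood at 0.60 ± 1.44 per the authors' deposited table. The sums for endothelial markers were 7438 in KO and 5903 in WT, with 12 of 12 above 0 and above the median of their range. Calcrl, the most abundant of them, stood at 0.21 ± 0.16 (adjusted p = 0.594) per the authors' deposited table. It had a baseMean of 2844, where the baseMean values of the list summed to 6671. Whether the ILC2s themselves contributed to the counts of Calcrl was not tested. For alveolar macrophage markers the sums were 1848 in KO and 1555 in WT, with 10 of 12 above 0. Most of these macrophage markers were scarce, and against the median of their own range 7 lay above and 5 below, while 64.7% of all tested genes were above 0 at a baseMean of 50 to 100 and 88.1% under 20. Of the adipocyte and lipofibroblast markers only 3 were tested, and against the median of their own range 1 lay above and 2 below. Over 8 genes the list summed to 158 in KO and 96.7 in WT. Tcf21 was its most abundant marker at a baseMean of 74.3, and Adipoq had 2.39, per the authors' deposited table. None with a row was at 0, and at an unadjusted p under 0.05 there were 3 endothelial markers higher, where 9.62% of all tested genes were (2.03% at a baseMean of 100 to 300), and 0 markers of the other 3 lists in either direction. Cidec and Lpl among the macrophage markers, and Cidec, Plin1 and Plin4 among the adipocyte markers, also stand in the wider list of lipid genes given below. The ILC2 markers summed to 189266 in KO and 219859 in WT, with 13 of 13 below 0 (7 of 13 when centred on abundant genes), and against genes of like abundance 6 lay above and 7 below. At an unadjusted p under 0.05, 5 of the ILC2 markers were lower, where 31.4% of tested genes were at baseMean values of 3000 or more. Thy1, which was among the 5, lies between 300 and 1000, where 5.33% were. The part of other cells in the values of Scd1, Cd36 and Fabp4 was not tested.

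**Figure D4:**
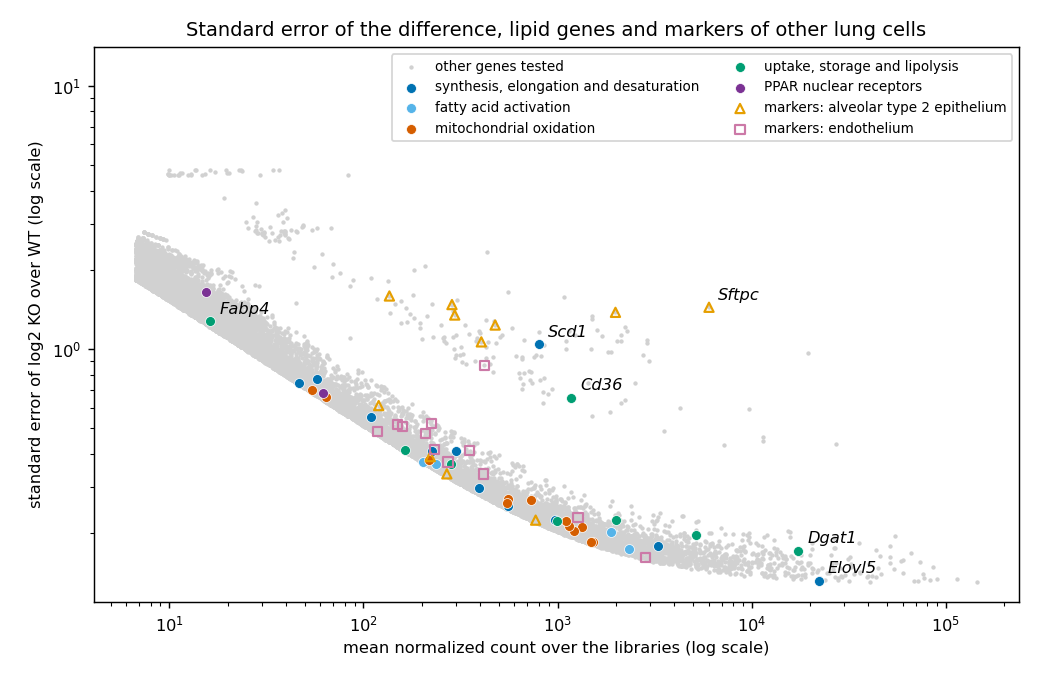
Each point is a tested gene, with its mean normalized count on the x axis and the standard error of its log2 KO over WT on the y axis (both log scales); lipid genes are coloured by role, and open symbols mark alveolar type 2 and endothelial markers. Scd1 and Cd36 lie apart from the main band, in the region that holds 7 of 11 type 2 markers and Kdr, while the other 35 lipid genes had errors of at most 2 times the median of their range.

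The nuclear receptors that drive fatty acid oxidation were scarce. Ppara had a baseMean of 15.4 and Ppard one of 61.8, or 4.01 and 8.22 normalized counts per kb. Their log2 values were 1.80 ± 1.65 (adjusted p = 0.675) for Ppara and 0.16 ± 0.68 (0.951) for Ppard per the authors' deposited table. The median of all tested genes was 1.79 in the range of baseMean of Ppara and 0.23 in that of Ppard. Pparg, the family member known for lipid uptake and storage, was named after its values were seen. It had a baseMean of 2123 and stood at -0.33 ± 0.20 (adjusted p = 0.466) per the authors' deposited table.

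A further 111 genes of the pathway were read from the table, and none passed. Among the 93 that were tested, 0 passed as higher and 0 as lower in KO. At an unadjusted p under 0.05 there were 4 higher (4.30%, against 9.62% of all tested genes) and 7 lower (7.53%, against 3.95%). Of all tested genes, 21.6% were lower at a baseMean of at least 1000 and 5.33% at one of 300 to 1000. Srebf1, Acox3 and Agpat4, which were among the 7, lay between 300 and 1000. The 93 genes had a median log2 value of -0.11, and set against the median of their own range of baseMean 41 lay above and 52 below, at a median distance of -0.05. Among 28 tested genes of synthesis and its control, the smallest p belonged to Srebf1, the regulator of lipogenic genes (-0.51 ± 0.22, adjusted p = 0.261), followed by the elongation-cycle enzymes Hacd3 (-0.39 ± 0.19, 0.322) and Hsd17b12 (-0.45 ± 0.24, 0.400) per the authors' deposited table. Srebf2, the related regulator of cholesterol genes and no member of this list, fell by 0.66 ± 0.17 (log2, adjusted p = 0.0345) per the authors' deposited table. That call ended with no filter on low counts (adjusted p = 0.0694) and when log2 values were centred on abundant genes (0.218) or on genes of like abundance (0.843). Among 32 tested genes of oxidation, Acot7, an acyl-CoA thioesterase, stood at -0.46 ± 0.18 (adjusted p = 0.192), Pdk4, a kinase that restrains glucose oxidation, at 2.84 ± 1.17 (0.221) and Ech1, an isomerase of unsaturated chains, at -0.48 ± 0.20 (0.228) per the authors' deposited table. Pdk4 had implied means of only 40.5 in KO and 5.64 in WT, in a range of baseMean where the median of all tested genes was 0.78.

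Among 33 tested genes of uptake, triglyceride synthesis and droplets, Agpat4, an acyltransferase of phospholipid and glyceride synthesis, had the lowest adjusted p of all 111 genes. Its implied means were 248 in KO and 450 in WT, a log2 value of -0.86 ± 0.30 (unadjusted p = 0.00395, adjusted p = 0.138) per the authors' deposited table. Vldlr, a receptor for triglyceride-rich lipoproteins, stood at 1.63 ± 0.73 (adjusted p = 0.276) and Soat1, which esterifies cholesterol, at -0.31 ± 0.17 (0.408) per the authors' deposited table. Vldlr had implied means of 120 in KO and 38.8 in WT, in a range of baseMean where the median of all tested genes was 0.23. Hilpda, a droplet protein that inhibits Pnpla2 and was named after its values were seen, had a baseMean of 15917 and a log2 value of -0.16 ± 0.16 (adjusted p = 0.709) per the authors' deposited table. Per kb it stood at percentile 99.8 of tested protein-coding genes.

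With 2 pools a genotype, the test is limited by the spread between pools, and an adjusted p above 0.05 does not show that the genotypes are alike. Over the 14 lipid genes with a baseMean of at least 1000, the 95% intervals of the fold reached down to 0.540, for Cpt1a, and up to 3.67, for Cd36. The next highest upper end was 1.19, for Acadl.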

How the data were processed

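RNA of 2 KO and 2 WT pools of sorted lung ILC2s was profiled, per the labels' protocols with SMART-Seq HT cDNA and a TruePrep library kit, neither described as marking strand. The submitters' processing notes name HISAT2, Cufflinks and mm10 and no roles for them; which counter was used is not given in the sources used here. Samples were grouped by title. Nothing says that same-numbered pools shared a day or litter, and p-values measure the spread between these pools.

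The authors deposited 1 comparison of the genotypes, whose headings match DESeq2 output. Its signal column, baseMean, is the authors' mean normalized count over the libraries, per the file headers. The log2 columns are the authors' fold change and its standard error, per the file headers. The score column is the authors' test statistic, per the file headers, and equalled fold change over error within 5.35e-08. The p-value columns are the authors' p and adjusted p, per the file headers. The adjusted p matched Benjamini-Hochberg values recomputed over the 19193 tested genes (baseMean from 6.71) within 3.96e-05. A further 8 columns carry codes matching no sample title and entered no step, so depth per library, values per sample, replicate agreement, refits and paired or leave-one-out fits were not analysed here. The main test is therefore the authors'. The table does not state its numerator; were KO the numerator, each direction given here, that of Nrp1 too, would be the opposite.

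Computed here with Python 3.11.15 and pandas 2.3.3 were the turned sign, 95% intervals (normal), implied genotype means, medians over 7 ranges of baseMean (edges 20, 50, 100, 300, 1000 and 3000) and levels per kb of all annotated exons (GENCODE M21, mm10, with a record for 37 of 37 members). The calculation was tested on simulated data. Members, lists and roles were chosen with earlier results of these data known. Named genes were all members, the 3 genes with the smallest p in each list of other pathway genes, the most abundant gene of each marker list, Nrp1 and Srebf2; other genes with values (Gata3, Kdr, Adipoq, Pparg and Hilpda) were chosen after their values were seen. Gpat3 was read under its older symbol, Agpat9. The markers Cfd and Adirf were not analysed here. Alternatives tried were other filters, genes adjusted over, thresholds and centrings.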

Additional observations from a re-analysis of the deposited data

How the results depend on the processing

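No lipid gene and no other pathway gene gained a call under any alternative run. The smallest adjusted p among the 37 was 0.414 with no filter on low counts, 0.426 with a baseMean of at least 50 (34 members left), 0.242 with protein-coding genes alone, 0.380 (Acacb) when centred on abundant genes, which adds 0.25 to each log2 value, and 1 when each gene was centred on genes of like abundance, a setting chosen after seeing the data. Nrp1 kept its direction and call throughout. Over all genes, those higher in KO numbered 21 with no filter, 22 with a baseMean of at least 50, 39 among protein-coding genes, 225 and 17 under the centrings, and 266 at an adjusted p under 0.1, against 87 as deposited. Those lower numbered 2 with no filter, 2 under each centring and 40 at 0.1, against 19. Filters change how many genes are adjusted for, and the cause was not tested otherwise. The median of oxidation genes moved to -0.0357 when centred on abundant genes. Centring on abundant genes turned the log2 values of Elovl1 (0.11), Elovl5 (0.0144), Elovl6 (0.0129), Acsl4 (0.0151), Cpt2 (0.0488), Acadl (0.14), Acadm (0.24), Hadhb (0.14), Etfb (0.12) and Fabp5 (0.18). Centring on like abundance turned Elovl1 (0.0581), Elovl5 (0.0262), Acsl4 (0.0104), Acadl (0.13), Acadm (0.18), Hadhb (0.13) and Ppard (-0.0696). No paired analysis was possible because the columns of values per library carry no sample label; for the same reason leave-one-out, edgeR and DESeq2 refits were not run.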
